A study of Mus musculus with 8 samples.

Results

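The collagen gene family was followed through single-cell RNA sequencing of mouse parietal bone. Its members were taken by symbol alone, as every gene whose name has the form Col, a number, the letter a and a number. This gave 44 of the 31053 genes in the deposited tables. By role, 11 encode fibrillar chains, 9 encode fibril-associated (FACIT) chains, 6 encode basement membrane chains, 6 encode beaded filament chains, 3 encode hexagonal network chains, 4 encode transmembrane chains, 2 encode multiplexins and 3 belong to none of these groups.

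Collagens are trimers of chains that wind into a triple helix, in which glycine recurs at regular intervals. Fibrillar collagens assemble into the tensile fibrils of bone, skin and cartilage, FACITs decorate those fibrils, type IV collagen forms the network of basement membranes, and type VI collagen forms beaded filaments around cells. Bone matrix is mostly type I collagen, a trimer of Col1a1 and Col1a2 chains made by osteoblasts, whereas cartilage matrix is built on type II, type IX and type XI collagen.

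The study compared wild-type (WT) mice with mice heterozygous (Het) for G610C, a glycine to cysteine substitution in the triple helix of the Col1a2 chain that serves as a model of osteogenesis imperfecta. Parietal bones of pups aged 4 to 5 days gave 4 WT and 4 Het libraries, with the cells of several pups of 1 genotype pooled in each library and the line kept on the C57BL/6J background. The first 2 libraries of each genotype were made with version 3 and the last 2 with version 3.1 of the single-cell kit. Deposited counts of the 2 kit versions also came from different versions of Cell Ranger, so kit and software changed together and cannot be told apart. The labels do not say how cell preparations were spread over the libraries.

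The mutated site is shown because it fixes what these data can see. Residue 610 of the helix of the Col1a2 chain was found in the GENCODE M21 transcript ENSMUST00000031668, where the uninterrupted glycine repeat starts at residue 100 of the precursor and runs for 1014 residues, so that the mutated glycine is residue 709 of the precursor. The following 39 coding bases lie in exon 35 of 52, at chr6:4530966-4531004 of GRCm38 on the plus strand, and carry the wild-type glycine codon in capitals.
Col1a2 codon: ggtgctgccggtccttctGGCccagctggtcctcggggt
This codon lies 2877 bases from the 3′ end of the transcript. The counts are unique molecular identifiers (UMIs) of captured 3′ ends, 1 per molecule irrespective of its length, so they did not read the codon and could not check the genotype labels, and levels are given as a percentage of all UMIs without scaling by gene length.

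Of 68625 barcodes, 46420 cells with at least 500 genes and under 10% mitochondrial UMIs were kept, and library totals ran from 30480239 to 85162035 UMIs. A cell counted as an osteoblast (OB) when Col1a1 had 10 or more UMIs and when 2 or more of Runx2, Sp7 and Ibsp had 2 or more UMIs each, which held for 2671 cells. By the share of Col1a1 in their UMIs these fell into 379 early OBs (eOBs, Col1a1 under 0.75% of UMIs), 1217 differentiating OBs (dOBs) and 1075 mature OBs (mOBs, Col1a1 over 3.5%). The 10 osteoblast markers, none of which is a collagen, summed to 0.706 to 4.15% of UMIs in eOBs, 0.517 to 3.93% in dOBs, 1.29 to 5.33% in mOBs and 0.0147 to 0.122% in the other cells of the 8 libraries. They were higher in eOBs than in dOBs in 6 of 8 libraries and higher in mOBs than in eOBs in 7 of 8, so their order did not follow that of the first 2 stages, which here rest on Col1a1 alone. Class names ending in -like were given to other cells in which 3 or more markers of a class, and of no other class, had 2 or more UMIs each. Some OBs also held 3 or more markers of such a class. They were 45, 24, 319 and 210 of the 243, 133, 821 and 509 OBs in WT libraries 1 to 4. In Het libraries 1 to 4 they were 39, 48, 170 and 66 of 168, 317, 321 and 159. These OBs were kept except in the setting named for them. Without them, 60, 17, 25 and 18 of 81, 23, 95 and 50 eOBs remained in WT and 14, 17, 29 and 12 of 22, 23, 58 and 27 in Het libraries. For mOBs this was 64, 63, 221 and 152 of 73, 77, 299 and 208 in WT and 63, 171, 58 and 26 of 79, 192, 105 and 42 in Het libraries. The cell classes differed between libraries, since haematopoietic-like cells were 52.6 and 40.3% of the other cells in WT libraries 1 and 2 and 2.80 to 8.34% elsewhere, and cartilage-like cells were 3.02 and 3.87% there, 33.4 and 21.3% in Het libraries 1 and 2 and 43.7 to 77% with kit version 3.1.

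All 44 members together made up 2.77% ± 1.25 (SD, n = 8 libraries) of UMIs in eOBs, 5.27% ± 1.16 in dOBs and 16.0% ± 3.02 in mOBs. Without Col1a1 and Col1a2 the other 42 members summed to 2.01% ± 1.25 in eOBs, 1.97% ± 0.785 in dOBs and 1.99% ± 1.03 in mOBs. Single libraries ran from 0.620 to 4.04% in eOBs and from 0.942 to 3.46% in mOBs, and members within this sum moved in both directions. Col1a1, the largest part of the family total, also set the stages. In mOBs the fibrillar group held 15.5%, the FACITs 0.298%, the beaded filament chains 0.157%, the transmembrane chains 0.0398% and the basement membrane chains 0.00536% of UMIs. Of the 44 members, 17 stayed under 0.005% in every OB stage and under 0.05% in the other cells, and every member had at least 1 UMI in mOBs. The lowest members of their groups there were Col19a1 and Col6a4 with 1 UMI each, Col4a3 with 3, Col17a1 and Col28a1 with 4 and Col18a1 with 21 UMIs over all libraries.

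**Figure D1:**
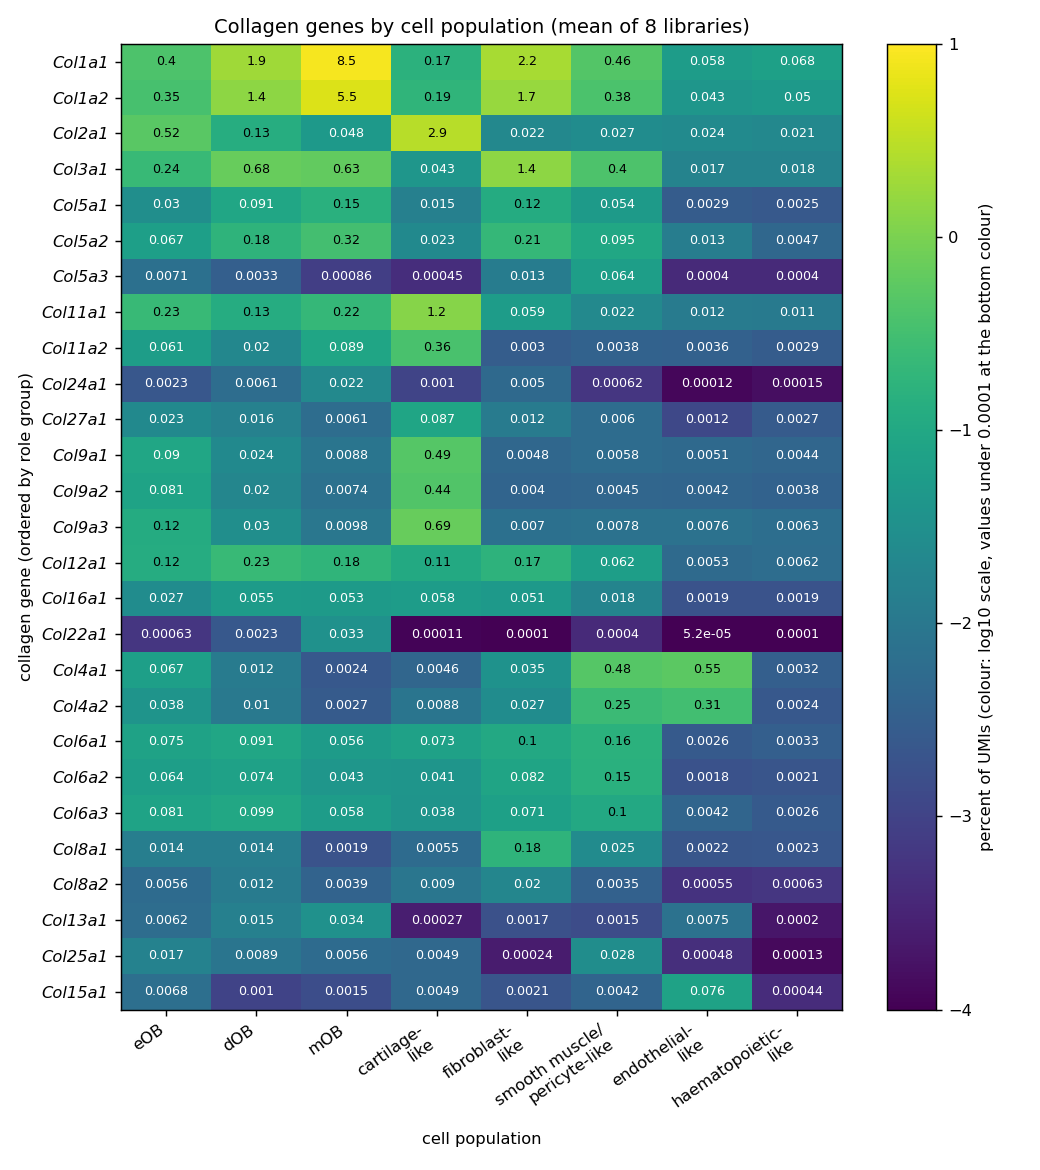
Mean level of the 27 collagen genes that reached at least 0.005% of UMIs in an osteoblast stage or 0.05% in the other cells, in percent of UMIs (number in each cell and colour on a log10 scale; columns are cell populations, mean over 8 libraries). Col1a1 at 8.5% and Col1a2 at 5.5% were highest in mOBs, Col2a1 at 2.9% in cartilage-like cells, and Col4a1 at 0.55% in endothelial-like cells.

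The class with the highest level differed between members. By the mean over libraries, among the 8 classes with cells in all 8 libraries, this was mOBs for 8 members, dOBs for 3, eOBs for 2, cartilage-like cells for 12, smooth muscle or pericyte-like cells for 10, fibroblast-like cells for 5 and endothelial-like cells for 4, and haematopoietic-like cells led for none. The leading class was the same in every library for 21 of the 44 members, and for Col4a1, Col6a3, Col16a1, Col19a1 and Col20a1 it was less than 1.2 times the next class. Schwann-like cells, with enough cells in 2 libraries only, were left out of this order, and Col18a1, Col20a1 and Col28a1 were higher there. Col2a1, the chain of type II collagen, was 2.87% ± 0.522 (SD, n = 8) of UMIs in cartilage-like cells, followed there by Col11a1 at 1.25% ± 0.234 and Col9a3 at 0.694% ± 0.0733. Col4a1 and Col4a2, the chains of the common basement membrane trimer, were 0.548% ± 0.0562 and 0.306% ± 0.0349 in endothelial-like cells. Col3a1, which encodes type III collagen of soft connective tissue, was 1.41% ± 0.490 in fibroblast-like cells, and Col5a3 was 0.0640% ± 0.0137 in smooth muscle or pericyte-like cells. Fibroblast-like cells at the limit of 3 markers were 69 of 405 and 32 of 51 in WT libraries 1 and 2 and 164 of 436 and 225 of 841 in Het libraries 1 and 2. They were 95 of 97 and 61 of 62 in WT libraries 3 and 4 and 90 of 93 and 38 of 49 in Het libraries 3 and 4. Haematopoietic-like cells, which should not make these matrix genes, held 0.0680% ± 0.0515 Col1a1, 0.050% ± 0.0358 Col1a2 and 9.96e-05% Col22a1, a background against which low levels elsewhere have to be read.

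Between all OBs and all other cells of the same libraries, 28 of the 37 members tested differed at an adjusted p under 0.05 (edgeR quasi-likelihood test with the library as a block, Benjamini-Hochberg over all 14291 genes tested), 13 higher and 15 lower in OBs, where 35.7% of all genes were called, 14.8% higher and 20.9% lower. Col1a1 took part in choosing the OBs and was left out of that count. Col4a4, Col4a5 and Col28a1, called lower, and Col6a5, called higher, were tested in no single OB stage. They held 37, 61, 35 and 143 UMIs in OBs and 541, 2763, 885 and 106 in other cells. Each passed the filter on low counts because of the side where it was higher, and could only be tested here for that reason. The median log2 fold change was -0.28 over the members tested and -0.04 over all genes. Of the fibrillar chains, Col24a1, Col1a2, Col5a2, Col5a1 and Col3a1 were higher in OBs, by 3.94, 3.26, 2.56, 2.26 and 1.57 on the log2 scale. Among FACITs, Col22a1 was higher by 6.05 (SE 0.26, adjusted p = 1.17e-06) and Col12a1 by 1.22. The transmembrane Col13a1 was higher by 4.14 (SE 0.18, adjusted p = 1.17e-06) and Col25a1 by 1.31. All 4 beaded filament chains tested were higher, Col6a1 by 0.61 and Col6a3 by 1.43. Among cartilage chains, those of type II and type IX had the largest negative values of all members tested, with log2 fold changes of -3.45 for Col9a3, -3.44 for Col2a1, -3.42 for Col9a2 and -3.26 for Col9a1, whereas Col11a1 had -1.18 and Col11a2 -0.97 (adjusted p = 0.297), and all 4 basement membrane chains tested and both multiplexins, Col15a1 and Col18a1, were lower as well. Other cells were dominated by different classes in different libraries, as given above, and calls for 7 of the 28 members, Col11a1, Col14a1, Col25a1, Col3a1, Col4a4, Col6a1 and Col8a1, were lost under at least 1 alternative setting. The part of cell composition in these differences was not tested.

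The comparison of mOBs with eOBs asked which collagens differ between OBs with a low and a high share of Col1a1. Of the 28 members tested (Col1a1, which chose the cells, is left out of this and all later counts), 7 rose and 11 fell, or 6 and 11 of 27 without Col22a1, which passed the filter on low counts only through mOBs, against 14.8% of all genes higher and 13.2% lower (28.0% of 9217 genes called in all, edgeR with the library as a block). Col24a1 too passed the filter of this fit through its mOB counts, and Col4a1, Col5a3 and Col8a1 passed it through their eOB counts. These members are kept in both counts. The fibrillar chains Col1a2, Col5a1, Col5a2 and Col24a1, the FACITs Col22a1 and Col16a1 and the transmembrane Col13a1 rose. Col4a1 and Col4a2, the 2 of 6 basement membrane chains tested, the cartilage chains of type II and type IX collagen, and Col5a3, Col8a1, Col25a1, Col26a1 and Col27a1 fell. Log2 fold changes were computed on sums of UMIs per library after TMM scaling and can therefore differ from the ratio of the percentages quoted. The median log2 fold change was -0.22 over the members tested and -0.03 over all genes. Of the 18 calls, 12 (11 of 17 without Col22a1) held under every alternative setting in which the gene was tested, and Col5a3 and Col8a1 were not tested in thinned cells.

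Col1a2 (chr6:4504814-4541544), the second chain of type I collagen and the gene carrying the mutation, was 0.295, 0.246, 0.345 and 0.377% of UMIs in eOBs of WT libraries 1 to 4 and 0.464, 0.436, 0.288 and 0.384% in those of Het libraries 1 to 4. In mOBs it was 8.15, 6.71, 5.37 and 5.55% in WT and 4.32, 4.99, 3.44 and 5.27% in Het libraries. No eOB value overlapped any mOB value, and Col1a2 rose by 4.35 on the log2 scale (SE 0.20, adjusted p = 3.31e-08). For comparison, Col1a1 (chr11:94936224-94953042) was 0.399% ± 0.0773 (SD, n = 8) in eOBs, 1.90% ± 0.212 in dOBs and 8.51% ± 2.06 in mOBs, which the stage limits imposed.

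Col5a1 and Col5a2, the chains of the type V collagen that co-assembles with type I and limits fibril diameter, rose by nearly equal amounts. Col5a1 (chr2:27886425-28039514) was between 0.0187 and 0.0398% of UMIs in eOBs and between 0.0868 and 0.211% in mOBs of the 8 libraries. It rose by 2.72 on the log2 scale (SE 0.12, adjusted p = 3.22e-08), and the log2 fold change of Col5a2 (chr1:45374321-45503282), which went from 0.0439 to 0.0900% in eOBs to 0.211 to 0.401% in mOBs, was 2.67 (SE 0.12, adjusted p = 3.22e-08). Col5a2 had 1.95 to 2.47 UMIs per Col5a1 UMI in eOBs and 1.73 to 2.89 in mOBs, with overlapping ranges. The third type V chain went the other way. Col5a3 was 0.00273 to 0.0152% in eOBs and 0.000506 to 0.00182% in mOBs and fell by 2.52 on the log2 scale (SE 0.21, adjusted p = 3.03e-06), so that the ratio of Col5a3 to Col5a1 UMIs was 0.105 to 0.449 in eOBs and 0.00333 to 0.00863 in mOBs. Smooth muscle or pericyte markers, the class in which Col5a3 was highest, summed to 0.0509 to 0.268% of UMIs in eOBs and 0.0103 to 0.0585% in mOBs. With OBs holding markers of another class left out, Col5a3 still fell, by 3.38.

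Col24a1 (chr3:145292472-145552011), a minor fibrillar chain, was at 0 UMIs in eOBs of WT libraries 1 and 2 and at 0.000414 to 0.00891% in eOBs of the other 6 libraries. All eOBs together held 119 of its UMIs, and it passed the filter on low counts of this fit only through its mOB counts. In mOBs it was 0.00876, 0.00868, 0.0458 and 0.0345% in WT and 0.0121, 0.0164, 0.0239 and 0.0272% in Het libraries, and it rose by 4.01 on the log2 scale (SE 0.41, adjusted p = 1.25e-05). All mOB values of kit version 3.1 lay above all those of kit version 3. Col27a1, the other short-helix fibrillar chain, fell by 1.58 (SE 0.21, adjusted p = 9.96e-05).

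Col22a1 (chr15:71795795-72034227), a FACIT known from tissue junctions, was nearly absent from eOBs, where all libraries together held 44 UMIs and single ones 0 to 0.000966% of UMIs. In mOBs it was 0.0484, 0.0345, 0.0306 and 0.0299% in WT and 0.0339, 0.0387, 0.0153 and 0.0361% in Het libraries. The lowest mOB value, in Het library 3, was above every eOB and dOB value. The fitted log2 fold change was 5.79 and rests on those few eOB counts. The gene passed the filter on low counts in mOBs but not in eOBs alone, so that it could only be tested here because it was high in mOBs. Of its 6678 UMIs in OBs, 6229 were in mOBs, and the other 43749 kept cells together held 951. Col16a1, a FACIT of many connective tissues, rose by 1.09 (SE 0.27, adjusted p = 0.00861), but within libraries it was higher in mOBs in 6 of 8.

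Col13a1 (chr10:61838236-61979108), a transmembrane collagen of cell adhesions, was 0.00207 to 0.0103% of UMIs in eOBs and 0.0209 to 0.0549% in mOBs, higher in mOBs of 8 of 8 libraries (log2 fold change 2.84, SE 0.24, adjusted p = 2.47e-06). Col25a1, a transmembrane collagen best known from nerve and muscle, fell by 1.08 (SE 0.23, adjusted p = 0.00321), a call that was lost with other stage limits (adjusted p = 0.141). The bases before the start sites of Col13a1 and Col24a1 are shown as examples for members that rose with Col1a1 and for which RefSeq gives a window outside every annotated transcript. Each run holds the 250 bases before the RefSeq start in GRCm38.p6, read along the gene, at chr10:61979109-61979358 on the minus strand and chr3:145292222-145292471 on the plus strand, with matches in capitals.
Col13a1: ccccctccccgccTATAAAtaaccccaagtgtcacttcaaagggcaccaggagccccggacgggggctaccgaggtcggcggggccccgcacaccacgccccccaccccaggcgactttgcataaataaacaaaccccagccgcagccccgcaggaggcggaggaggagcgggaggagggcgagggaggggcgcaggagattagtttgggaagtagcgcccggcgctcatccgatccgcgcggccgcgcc
Col24a1: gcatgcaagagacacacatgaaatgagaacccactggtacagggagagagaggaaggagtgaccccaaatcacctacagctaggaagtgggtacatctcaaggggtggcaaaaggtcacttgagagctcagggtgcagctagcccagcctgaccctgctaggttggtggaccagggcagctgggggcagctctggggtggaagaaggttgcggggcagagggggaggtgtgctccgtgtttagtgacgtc
Both strands were searched for the CCAAT box, for TGTGGT as the core letters bound by Runx proteins, for the GC box GGGCGG, for the TATA box letters TATAAA and for the AP-1 letters TGANTCA. Col13a1 held TATAAA 237 bases before its start, and Col24a1 held none of these letters. Among 32851 RefSeq windows of this length, 33.8% held the CCAAT box, 14.0% the Runx letters, 32.7% the GC box, 12.4% the TATA letters and 6.75% the AP-1 letters, and among 38 windows of the 35 collagen genes in the table, 13, 3, 22, 5 and 1 did, in that order.

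**Figure D2:**
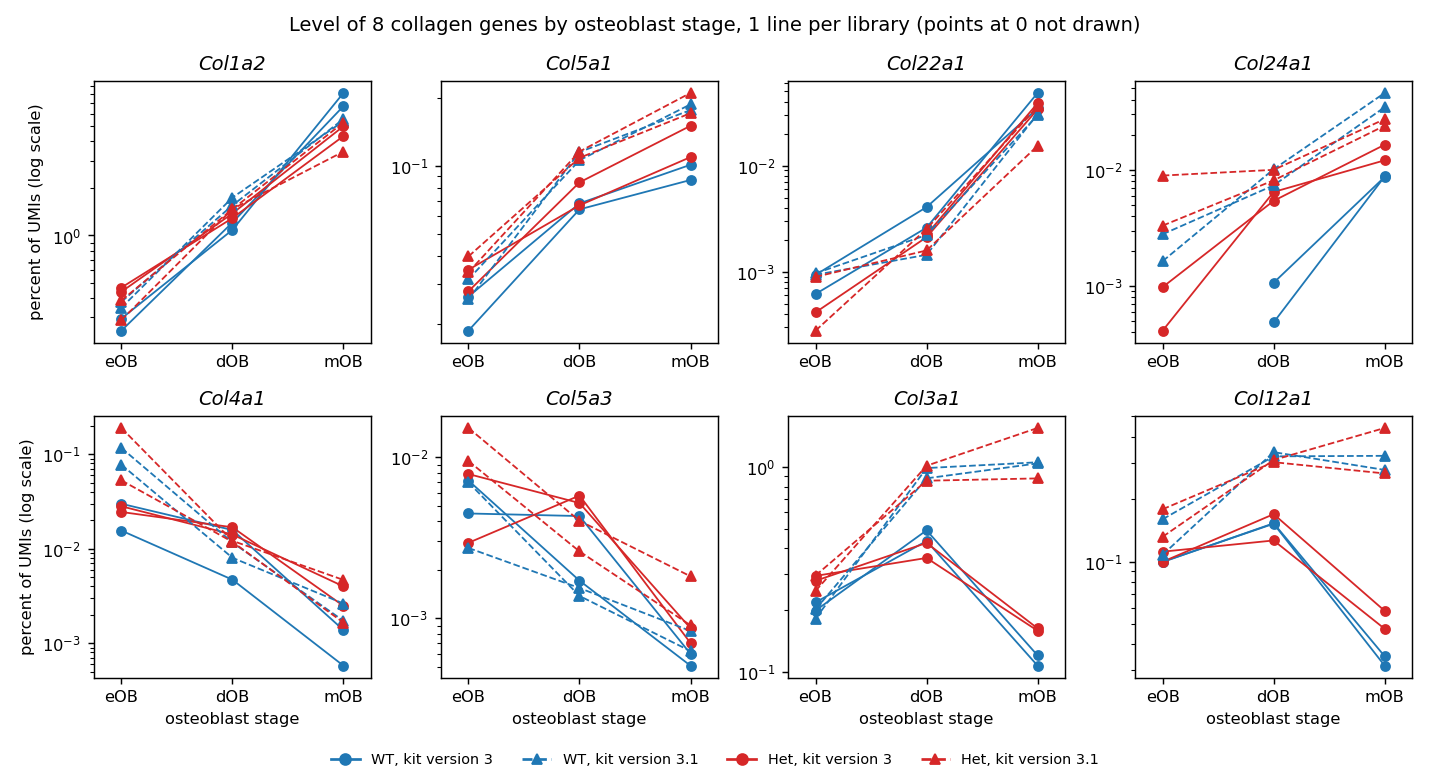
Level of 8 collagen genes in eOBs, dOBs and mOBs, in percent of UMIs on a log scale (1 line per library; blue WT, red Het; circles and solid lines kit version 3, triangles and broken lines kit version 3.1; values of 0 not drawn). Col1a2, Col5a1, Col22a1 and Col24a1 were higher in mOBs than in eOBs in 8 of 8 libraries and Col4a1 and Col5a3 lower in 8 of 8, whereas Col3a1 and Col12a1 were lower in mOBs with kit version 3 and higher with version 3.1.

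Col4a1 and Col4a2 lie head to head on the genome, with annotated ends that overlap by 22 bases, and both fell. Col4a1 was 0.0299, 0.0156, 0.0775 and 0.117% of UMIs in eOBs of WT and 0.0281, 0.0245, 0.190 and 0.0529% in those of Het libraries. In mOBs it was 0.000579 to 0.00468%, below every eOB value, and it fell by 4.20 on the log2 scale (SE 0.35, adjusted p = 2.37e-06). The log2 fold change of Col4a2 was -3.31 (SE 0.19, adjusted p = 2.02e-07). Endothelial markers summed to 0.00311 to 0.216% of UMIs in eOBs and 0.000752 to 0.00353% in mOBs, and all 9 were detected in both. Without OBs holding markers of another class the log2 fold changes were -3.39 and -2.65, still called. The ratio of Col4a2 to Col4a1 UMIs was 0.523 to 0.80 in eOBs, 0.605 to 1.11 in dOBs and 0.550 to 1.62 in mOBs, compared with 0.540 to 0.575 in endothelial-like and 1.47 to 2.79 in cartilage-like cells.

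The cartilage collagens varied widely between libraries within each stage. Col2a1 was 0.0644, 0.000623, 1.54 and 1.12% of UMIs in eOBs of WT and 0.173, 0.0696, 0.611 and 0.614% in those of Het libraries, and 0.000840, 0.0158, 0.0501 and 0.0468% and 0.0332, 0.0109, 0.0722 and 0.154% in mOBs. Groups overlapped, and mOBs were lower in 7 of 8 libraries, the exception being WT library 2. Col2a1 fell by 2.71 on the log2 scale (SE 0.75, adjusted p = 0.0168), and Col9a1, Col9a2 and Col9a3, the chains of the FACIT that coats type II fibrils, fell by 2.57, 2.89 and 2.89. Cartilage markers other than collagens summed to 0.0134 to 0.0757% of UMIs in eOBs of kit version 3 and 0.310 to 0.897% in those of version 3.1, and to 0.00306 to 0.110% in mOBs. Without OBs holding markers of another class, the log2 fold changes of Col2a1, Col9a1, Col9a2 and Col9a3 were -0.37, -0.51, -0.49 and -0.35 and none was called.

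Col11a1 and Col11a2, the type XI chains that co-assemble with type II collagen in cartilage, did not follow Col2a1 into mOBs. In mOBs Col11a1 was 0.122 to 0.288% and Col11a2 0.0341 to 0.163% of UMIs. There were 1.87 to 189 Col11a1 UMIs per Col2a1 UMI in mOBs, the highest in WT library 1 on 14 UMIs of Col2a1, and 0.394 to 0.472 in cartilage-like cells. In eOBs the ratio was 0.427 to 0.474 with kit version 3.1 and 0.519, 6.50, 0.501 and 0.655 in the 4 libraries of version 3, the 6.50 of WT library 2 resting on 2 UMIs of Col2a1. For Col11a2 the same ratio was 0.472 to 194 in mOBs, the highest on the same 14 UMIs, and 0.106 to 0.154 in cartilage-like cells. Neither type XI range in mOBs touched that of cartilage-like cells, whereas the ratio of Col9a1 to Col2a1 was 0.149 to 0.429 in mOBs and 0.156 to 0.179 in cartilage-like cells, which overlapped. Between mOBs and eOBs, Col11a1 had a log2 fold change of 1.26 (adjusted p = 0.133) and Col11a2 one of 1.54 (adjusted p = 0.203), and neither was called. Without OBs holding markers of another class both were called higher, with 3.39 (adjusted p = 6.62e-08) and 4.75 (adjusted p = 8.51e-07), as they were with no filter on low counts.

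Of the remaining members, Col8a1, a hexagonal network chain of vessels, fell by 2.42 (SE 0.35, adjusted p = 0.000207), while Col8a2 had a log2 fold change of -0.26 (95% interval -1.01 to 0.49). The 3 main type VI chains were near the middle of the family, with log2 fold changes of -0.17 for Col6a1, -0.34 for Col6a2 and -0.16 for Col6a3, none called. Without OBs holding markers of another class all 3 were called lower, with -0.67, -0.91 and -0.72. There were 0.676 to 0.972 Col6a2 UMIs per Col6a1 UMI in eOBs, 0.683 to 0.901 in dOBs and 0.678 to 0.890 in mOBs, and 0.935 to 1.37, 1.03 to 1.18 and 0.853 to 1.33 Col6a3 UMIs per Col6a1 UMI, ranges that overlapped between stages and were not tested. Col15a1, a multiplexin of vessel and muscle basement membranes, had a log2 fold change of -1.96 (adjusted p = 0.0507) and was called lower under 7 of 15 alternative settings. Col26a1, the most abundant of the members in no other role group, fell by 1.2. This call was kept in 11 alternative settings and lost without WT library 3, and the gene was not tested in the others.

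**Figure D3:**
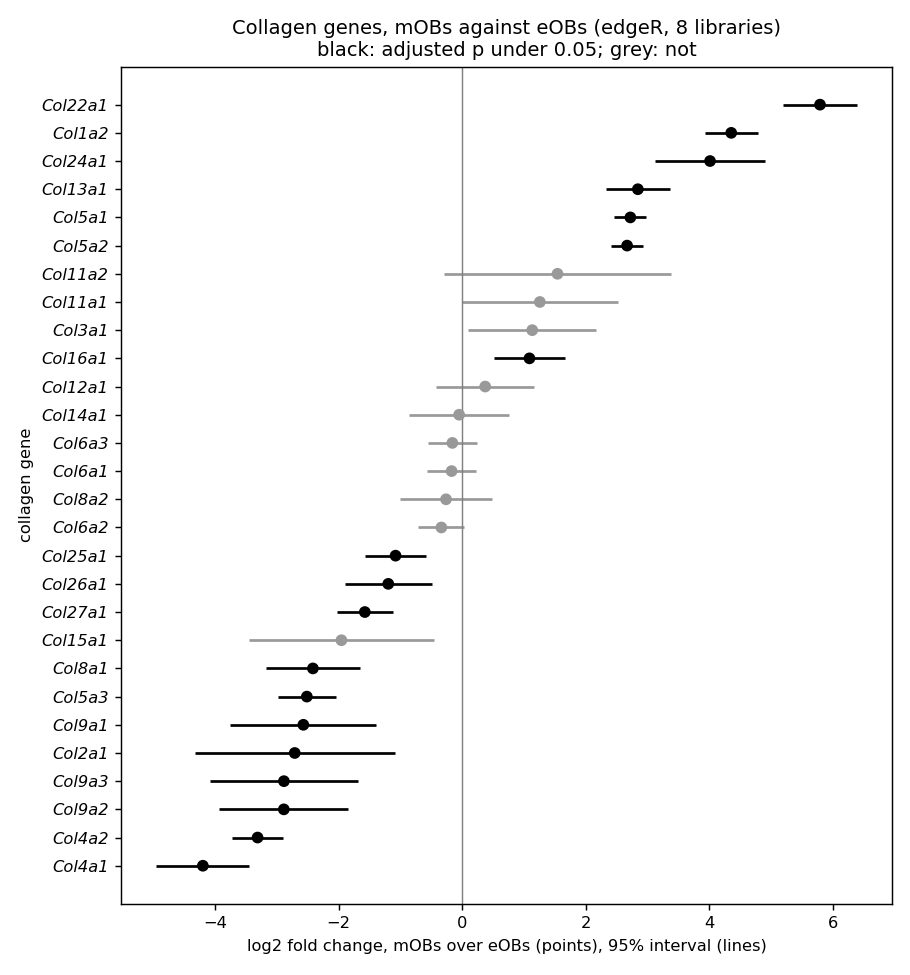
Log2 fold change of the 28 collagen genes tested in mOBs over eOBs, with points for estimates and lines for 95% intervals (edgeR, 8 libraries; black for an adjusted p under 0.05, grey for others). Estimates run from 5.79 for Col22a1 to -4.20 for Col4a1, and 7 black points lie above and 11 below 0. Col22a1 and Col24a1 were tested only because of their mOB counts, and Col4a1, Col5a3 and Col8a1 because of their eOB counts.

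Col3a1 and Col12a1 moved in opposite directions with the 2 kit versions, and the type XI chains, higher in mOBs in all 4 libraries of kit version 3, were lower in 3 of 4 of version 3.1, the exception being Het library 4. This was noticed in the plot of levels by stage and then tested, so the tests in this and the next paragraph were chosen after the data were seen. Col3a1 (chr1:45311538-45349706) was 0.182 to 0.295% of UMIs in eOBs of all 8 libraries. In mOBs it was 0.107, 0.120, 0.158 and 0.163% in the 4 libraries of kit version 3 and 1.05, 1.04, 1.55 and 0.878% in those of version 3.1. Col12a1 (chr9:79598991-79718831), a FACIT of tendon and periosteum, was 0.0316, 0.0351, 0.0476 and 0.0580% with version 3 and 0.276, 0.323, 0.440 and 0.266% with version 3.1, starting from 0.0997 to 0.179% in eOBs. The mOB ranges did not overlap between kit versions for either gene, and WT and Het libraries lay on the same side in each. The change from eOBs to mOBs differed between kit versions for 9 of the 30 members tested, where 4.48% of all 10490 genes were called, 2.27% higher and 2.21% lower. The difference (version 3.1 minus version 3, log2) was 2.94 for Col3a1 (SE 0.20, adjusted p = 1.05e-06), 2.28 for Col12a1 (SE 0.24, adjusted p = 0.000117), 1.5 for Col16a1 and 0.94 to 0.97 for Col6a1, Col6a2 and Col6a3, and -4.40 for Col11a2, -3.20 for Col11a1 and -1.91 for Col4a1. Col3a1, Col11a1 and Col11a2 were called under every alternative setting. The ratio of Col12a1 to Col3a1 UMIs in mOBs was 0.263 to 0.357 across all 8 libraries.

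In mOBs alone, 18 of 28 members differed between kit versions, 15 higher and 3 lower with version 3.1, where 58.1% of 9623 genes were called, 30.4% higher and 27.7% lower, so that the members' share was near that of all genes. Col3a1 was higher by 2.63, Col12a1 by 2.52, Col8a2 by 2.38 and Col25a1 by 2.21, and Col11a2, Col22a1 and Col1a2 were lower, by 1.24, 0.91 and 0.68. Of the 18 calls, 12 held under every alternative setting in which the gene was tested, and Col25a1 and Col8a2 were not tested in thinned cells. Of those lower, only Col11a2 stayed called with other stage limits or without OBs holding markers of another class, and calls for Col4a2, Col6a3, Col9a2 and Col9a3 were each lost under at least 1 alternative. Fibroblast markers other than collagens summed to 0.138 to 0.326% of UMIs in mOBs of version 3 and 0.337 to 0.524% in those of version 3.1. Smooth muscle or pericyte markers summed to 0.0103 to 0.0298% and 0.0423 to 0.0585%, and cartilage markers to 0.00306 to 0.0275% and 0.0423 to 0.110%. Haematopoietic markers went the other way, with 0.00320 to 0.0671% and 0.000150 to 0.00178%, as did erythroid markers, with 0.000466 to 0.00499% and 5.2e-05 to 0.000301%. The ranges of these 5 lists did not overlap between kit versions, whereas those of the endothelial, skeletal muscle, Schwann and epidermis lists did. Their part in the kit difference was not tested.

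Col1a1 and Col1a2 encode partner chains, and their ratio was taken within each library. In mOBs there were 0.665, 0.632, 0.686 and 0.671 Col1a2 UMIs per Col1a1 UMI in WT and 0.645, 0.607, 0.593 and 0.626 in Het libraries. The groups overlapped at WT library 2, and the mean log2 ratio was -0.592 ± 0.050 (SD, n = 4) in WT and -0.696 ± 0.053 in Het (difference -0.103, exact two-sided permutation test p = 0.0571, 0.229 after adjustment over 4 populations; 70 assignments, smallest possible p = 0.0286). Within kit version 3 the difference was -0.0517 and within version 3.1 it was -0.155. In dOBs the difference was -0.0627 (exact permutation p = 0.314, adjusted p = 0.457), in eOBs 0.0617 (exact permutation p = 0.657) and in other cells 0.170 (exact permutation p = 0.343, adjusted p = 0.457). Its sign differed between kit versions 3 and 3.1 in these populations, with 0.00285 and -0.128 in dOBs, 0.166 and -0.0428 in eOBs and -0.0313 and 0.372 in other cells. Col1a1, the denominator, also chose the cells.

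Across populations the same ratio was 0.711 to 1.01 in eOBs, 0.706 to 0.83 in dOBs and 0.593 to 0.686 in mOBs. No test was made of this order, because Col1a1 defined the stages. It was 0.705 to 0.825 in fibroblast-like and 0.897 to 1.65 in cartilage-like cells, where Col1a1 was 0.167% ± 0.0767 of UMIs. In haematopoietic-like cells of the same libraries, taken as the background, it was 0.662 to 0.914. Cartilage-like cells exceeded haematopoietic-like cells in 8 of 8 libraries, by 0.672 ± 0.278 on the log2 scale (exact sign-flip test p = 0.00781, the smallest possible with 8 pairs, chosen after the data were seen).

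**Figure D4:**
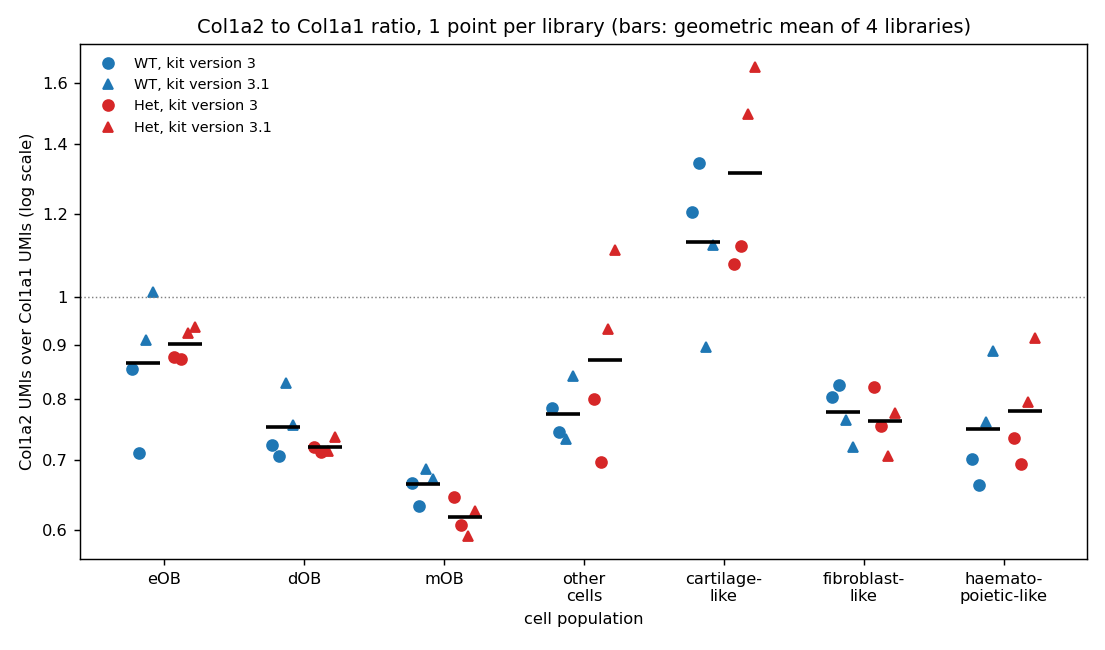
Col1a2 UMIs per Col1a1 UMI (log scale) in 7 cell populations, 1 point per library (blue WT, red Het; circles kit version 3, triangles version 3.1; bars geometric means of 4 libraries; dotted line at 1). In mOBs the WT points lie between 0.632 and 0.686 and the Het points between 0.593 and 0.645, and cartilage-like cells hold the highest points, up to 1.65.

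The Het against WT comparison asked whether the mutation altered collagen expression within a stage. In mOBs none of the 28 members tested passed an adjusted p of 0.05 in edgeR with kit version as a covariate, where 0.530% of 9623 genes did. At an unadjusted p under 0.05, 12 members were past the threshold, 11 of them higher in Het, compared with 11.2% of all genes. Of these 12, 10 had the larger value within kit version 3, the exceptions being Col1a2 and Col5a3. The Het against WT value differed between kit versions for 0 of the 28 members at an adjusted p of 0.05, where it did for 0.104% of all genes. DESeq2 called 1, Col15a1, and 1.35% of all genes. The median log2 fold change was 0.34 over the members tested and 0.01 over all genes. A value for these members rests on cells chosen by Col1a1, and a change in the number of transcripts per cell cannot be told apart from a change in which cells reached the stage.

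Both type I chains had lower means in Het mOBs. Col1a2 was 6.45% ± 1.28 (SD, n = 4) of UMIs in WT and 4.50% ± 0.814 in Het, with the highest Het library at 5.27% and the lowest WT library at 5.37%. After TMM scaling, which the fold change rests on, the groups overlapped, and the log2 fold change was -0.55 (SE 0.19, adjusted p = 0.271 in edgeR). It was -0.74 within kit version 3 and -0.36 within version 3.1. Col1a1 was 9.74% ± 2.07 in WT and 7.28% ± 1.25 in Het, with overlapping groups, which is given with no test because its share chose the mOBs. Osteoblast markers other than collagens summed to 2.07 to 5.33% of UMIs in mOBs of WT and 1.29 to 2.22% in those of Het libraries. Haematopoietic markers summed to 0.000957 to 0.0671% and 0.000150 to 0.0164%. The groups overlapped for both lists, and their part in the type I values was not tested. Without Het library 4, the shallowest with 664702 UMIs in mOBs, Col1a2 and Col11a2 were called lower in Het, while Col4a1 and Col4a2 were called higher. With no filter on low counts, Col1a2 and Col10a1 were called lower. Col2a1, Col4a1, Col4a2, Col6a1, Col9a1, Col9a2, Col9a3, Col15a1 and Col26a1 were called higher in that setting.

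Col15a1 (chr4:47208161-47313167) had the largest value. It was 0.000600, 0.000217, 0.000990 and 0.000520% of UMIs in mOBs of WT and 0.00280, 0.00224, 0.00125 and 0.00346% in those of Het libraries, and the groups did not overlap. The log2 fold change was 1.75 (SE 0.39, adjusted p = 0.0750 in edgeR), 2.46 within kit version 3 and 1.30 within version 3.1, on 235 UMIs in all. It was called with DESeq2, with other stage limits, with no filter on low counts, and without WT library 3 or Het library 3. Col15a1 was highest in endothelial-like cells, at 0.0763%, and endothelial markers summed to 0.00117 to 0.00225% in mOBs of WT and 0.000752 to 0.00353% in those of Het libraries, with a higher Het mean for 8 of 9 markers. The part of endothelial RNA in the difference was not tested.

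Col4a1 was 0.00158% ± 0.000851 (SD, n = 4) of UMIs in WT and 0.00320% ± 0.00138 in Het mOBs (log2 fold change 1.0, adjusted p = 0.209 in edgeR), and Col4a2 had a value of 0.70 (adjusted p = 0.289). The cartilage chains had positive values with wide intervals, 1.26 for Col2a1 (95% interval 0.07 to 2.45), 1.08 for Col9a1 and 1.45 for Col9a2 (adjusted p = 0.223), while cartilage markers summed to 0.00306 to 0.0508% in WT and 0.00903 to 0.110% in Het mOBs. Among the 7 members that rose from eOBs to mOBs, Col1a2 had an interval of -0.96 to -0.14, while those of Col5a1 at 0.21 (95% interval -0.10 to 0.52), Col5a2 at -0.19 (-0.47 to 0.08), Col13a1 at -0.16 (-0.56 to 0.23), Col16a1 at -0.10 (-0.46 to 0.25) and Col22a1 at -0.28 (-0.76 to 0.21) included 0. Col24a1 had a value of -0.07 (-0.59 to 0.46) over all libraries, 0.66 within kit version 3 and -0.71 within version 3.1, and the difference between these missed the threshold (adjusted p = 0.0592 in edgeR). Col8a1 had 5.02 within kit version 3, where Het library 1 stood far above the others, and -1.78 within version 3.1.

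**Figure D5:**
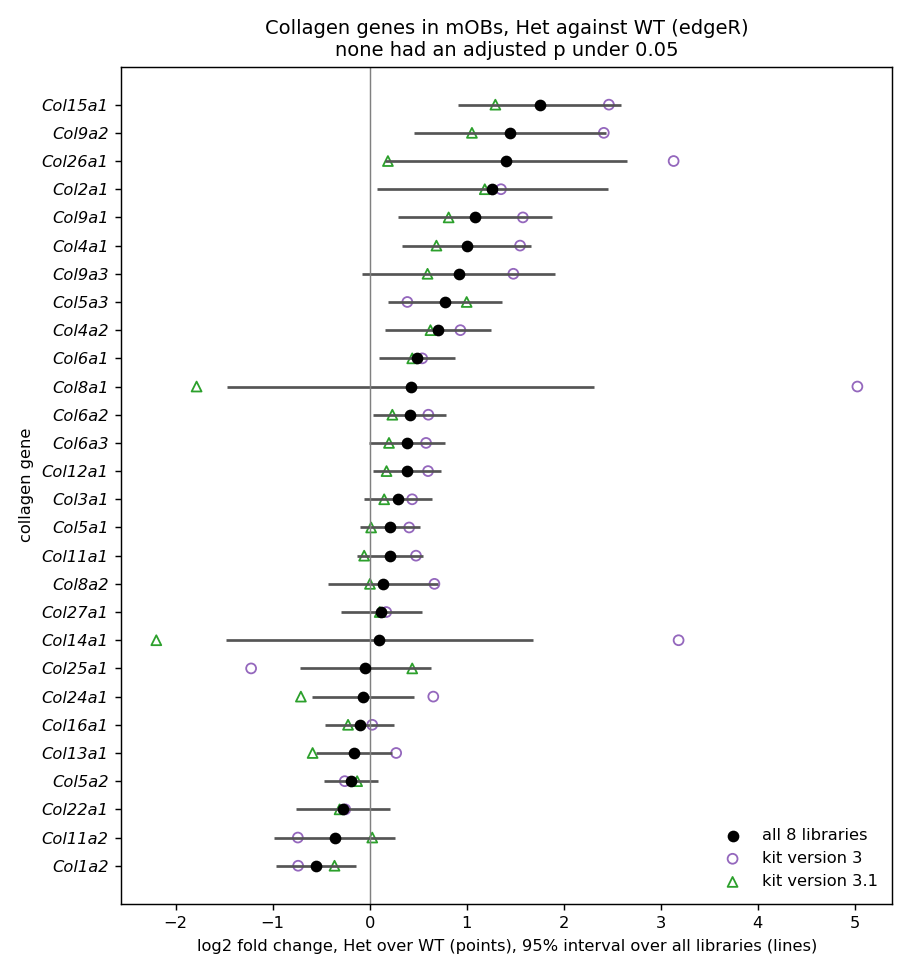
Log2 fold change of the 28 collagen genes tested in mOBs, Het over WT (black points, with lines for 95% intervals over all 8 libraries; open circles kit version 3 alone, open triangles version 3.1 alone). Values run from 1.75 for Col15a1 to -0.55 for Col1a2, and no gene had an adjusted p under 0.05.

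In dOBs none of 29 members was called in edgeR, where 0.0101% of 9857 genes were, and none with DESeq2. At an unadjusted p under 0.05 there were 6 members, against 7.51% of all genes. Col5a3 had a log2 fold change of 1.01 (SE 0.22, adjusted p = 0.503), Col13a1 one of -0.56 (adjusted p = 0.579) and Col8a2 one of -0.44 (adjusted p = 0.579). For Col24a1 the values within the kit versions, 3.19 and -0.00038, differed from each other (adjusted p = 0.0253 in edgeR), as they did for 1 of 29 members and 0.264% of all genes. The value within kit version 3 rests on 6 and 5 UMIs in WT and 67 and 58 in Het libraries. In eOBs, with 249 WT and 130 Het cells, none of 26 members was called in edgeR or DESeq2, as for all 8118 genes in edgeR (percent called 0), and 5 members were past an unadjusted p of 0.05, against 3.82% of all genes, all with positive values, of which Col3a1 at 0.43 had the smallest SE, 0.14. The eOB value of Col9a2 was 3.03 within kit version 3 and -1.15 within version 3.1, which differed (adjusted p = 0.0124 in edgeR), as it did for 1 of 26 members and 1.07% of all genes. The Het against WT change differed between mOBs and dOBs for none of 30 members in edgeR (percent called over all genes 0) or DESeq2. At an unadjusted p under 0.05 there were 2, Col15a1 with a difference of 1.38 (adjusted p = 0.881) and Col24a1 with one of -1.11 (adjusted p = 0.996), against 4.61% of all genes.

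In the other cells none of 41 members was called in edgeR (percent called over all genes 0), and 17 were past an unadjusted p of 0.05, all with positive values, against 25.7% of all genes. DESeq2 called 13 members, all higher in Het, where it called 11.8% of all genes. The Het against WT value differed between kit versions for 23 of the 41 members, where it did for 24.7% of all genes. Among the 17 members past the unadjusted p, 16 had the larger value within kit version 3, the exception being Col23a1. Col2a1 had a log2 fold change of 2.10 within kit version 3 and 0.33 within version 3.1, and Col11a1 one of 2.26 and 0.34, and both differences passed the threshold (adjusted p = 0.0296 and 0.0159 in edgeR). Cartilage-like cells were 3.02 and 3.87% of other cells in the WT and 33.4 and 21.3% in the Het libraries of kit version 3. Within cartilage-like cells Col2a1 was 2.87% of UMIs in both genotypes. In these sums a larger share of a cell type and more RNA per cell cannot be told apart.

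Genes that modify, fold and process procollagen were followed as a list of 36. Of 34 tested, 25 rose from eOBs to mOBs and none fell in edgeR, where 14.8% of all genes rose and 13.2% fell, and DESeq2 called 24 higher and 1 lower. The transcription factor gene Creb3l1 rose by 3.20 on the log2 scale (adjusted p = 6.21e-08 in edgeR), the crosslinking enzyme gene Lox by 3.18, Sparc, encoding a collagen-binding matrix protein, by 2.80, the prolyl 4-hydroxylase subunit genes P4ha2 and P4ha1 by 2.63 and 2.16, the chaperone genes Serpinh1 and Fkbp10 by 1.54 and 1.49 and the procollagen C-proteinase gene Bmp1 by 1.42. Loxl1 had a value of -1.09 (adjusted p = 0.0822) and Plod2, a lysyl hydroxylase gene, one of 0.40 (adjusted p = 0.0964). Het against WT, none of 34 was called in mOBs in edgeR (0.530% of all genes), and 8 were past an unadjusted p of 0.05 (11.2% of all genes), with Loxl2, a lysyl oxidase gene, at 1.04 (adjusted p = 0.0594) and Bmp1 at -0.59 (adjusted p = 0.158). DESeq2 called 1 of the list (1.35% of all genes), edgeR 6 with no filter on low counts (2.91%), 4 without Het library 3 (1.73%) and 4 without Het library 4 (1.54%).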

How the data were processed

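Single-cell RNA was captured at the 3′ end (Chromium, kit versions 3 and 3.1). The deposited counts are UMIs per gene and barcode made by the authors with Cell Ranger (versions 5.0.0 and 6.0.1 in the submitters' processing notes) on mm10. Cells were selected as described above, doublets were not removed, and libraries shared at most 0.558% of barcodes. UMIs were summed per library and population and fitted with edgeR 4.0.16 (quasi-likelihood, TMM, low counts filtered; R 4.3.3), with kit version as covariate for genotype and the library as block for stages, adjusted over all genes tested. Scripts were tested on simulated counts. DESeq2 1.42.0, other size factors, filters, selections and stage limits, and leaving out each library were alternatives. Labels gave no origin for replicates, so p-values measure the spread between libraries. The members and lists were chosen with earlier results of these data known. Genes were named at 0.005% of UMIs in an OB stage or 0.05% in other cells, or as extremes of a role. Col4a4, Col4a5, Col6a5, Col14a1, Col20a1 and Col23a1 were named outside this rule, all after their values were seen.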

Additional observations from a re-analysis of the deposited data

Results flagged for a closer look

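In mOBs, Col4a2 of Het library 3 stood at 0.00676% of UMIs, where the nearest other Het library was at 0.00241%. Col8a1 of Het library 1 stood at 0.00686%, where the nearest was at 0.00120%. Both gaps exceeded Dixon's 95% value for 4 samples, among 62 groups tested, of which chance would pass about 1 in 20.

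For 9 members the change from eOBs to mOBs differed between kit versions (version 3.1 minus version 3, log2, edgeR, tested after the data were seen). The difference was 2.94 for Col3a1, 2.28 for Col12a1, 1.5 for Col16a1, 0.97 for Col6a3, 0.95 for Col6a1, 0.94 for Col6a2, -1.91 for Col4a1, -3.20 for Col11a1 and -4.40 for Col11a2. Kit version and software cannot be told apart here, and the labels do not say how cell preparations were spread over the libraries.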

How the results depend on the processing

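Single-gene values were computed for 141 results under 2567 alternatives, covering all members tested in mOBs against eOBs and in mOBs, Het against WT, and in the other comparisons only those called or past an unadjusted p of 0.05. For the 73 results with a call it was kept in 1182 alternatives and lost in 86, and the direction turned in 0. For the 68 without one, 1204 alternatives gave no call in the same direction, 59 gained a call and 36, none of them called, turned the direction of 12 results. Between mOBs and eOBs, Col12a1 turned to -0.36 without OBs holding markers of another class, Col6a3 to 0.15 with the looser selection, and Col14a1 to 0.16 with the looser selection and 0.023 with no filter, and ran from -0.52 to 0.13 when 1 library was left out. In mOBs, Het against WT, values turned without OBs holding markers of another class for Col24a1 (0.13), Col25a1 (0.0040), Col27a1 (-0.058) and Col8a2 (-0.15), in cells thinned to 2000 UMIs for Col22a1 (0.072), Col24a1 (0.41) and Col27a1 (-0.012), with no kit term for Col25a1 (0.021) and Col8a2 (-0.090), with other stage limits for Col16a1 (0.075) and with under 5% mitochondrial UMIs for Col24a1 (0.0015). When 1 library was left out they ran from -0.28 to 0.027 for Col13a1, -0.66 to 0.92 for Col14a1, -0.25 to 0.035 for Col16a1, -0.28 to 0.16 for Col24a1, -0.75 to 0.21 for Col25a1, -0.064 to 0.24 for Col27a1, -0.62 to 1.16 for Col8a1 and -0.35 to 0.45 for Col8a2. In mOBs, Het against WT, the 0 members called (0.530% of all genes) became 2 with other stage limits (0.938%), 1 with DESeq2 (1.35%), 11 with no filter on low counts (2.91%) and 0 to 4 when 1 library was left out (4 without Het library 4, where 1.54% were called). With no filter, 8 members were called in dOBs (1.39% of all genes), 1 in eOBs (0.795%), 4 for the difference between mOBs and dOBs (0.447%) and 20 for the difference between kit versions (4.57%). DESeq2 called 13 in other cells (11.8%). The 9 members that differed between kit versions became 5 in cells thinned to 2000 UMIs (2.28%), 3 with other stage limits (1.25%) and 6 to 12 when 1 library was left out, the lowest without WT library 4 (2.64%) and the highest without Het library 4 (5.73%). The Col1a2 to Col1a1 difference in eOBs ran from -0.0321 (without WT library 2) to 0.137 when 1 library was left out. With no filter on low counts the median of all genes between OBs and other cells moved from -0.04 to -0.35. The causes were not tested. With libraries of equal replicate number paired by a replicate block, 0 members were called in mOBs, dOBs, eOBs and other cells, and calls over all genes in mOBs went from 51 to 26. The labels do not say what equal numbers share, and deviations of equally numbered libraries correlated between -0.12 and 0.08 over both kit versions of these 4 populations, so the numbers were not taken to pair the libraries. Low members rest on few UMIs, which limits their precision.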

Other observations

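Outside the classes compared above, the 32 Schwann-like cells of Het library 2 and the 10 of Het library 3 held 0.0218 and 0.0294% Col28a1 and 0.00580 and 0.0181% Col20a1, compared with at most 0.000424% Col28a1 and 0.000365% Col20a1 over all other cells of any library. The remaining 6 libraries had fewer than 10 such cells. Col10a1, the collagen of hypertrophic cartilage, had 73 UMIs in mOBs, 67 of them in WT library 4, and 0 in eOBs. Col6a5 had 100 UMIs in dOBs, 27 in eOBs, 16 in mOBs and 106 in all other cells.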
